A study of Oryza sativa with 8 samples.

Results

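The response of rice cultivar M202 to 24 h of complete submergence is described here across all genes of the array. It was measured as 2 arrays of submerged M202 (day 1) against 2 arrays of non-submerged M202 (day 0), chosen by their labels, so 4 of the 8 arrays of the series carry it. Of the 57381 probe sets, 57258 are not controls, and 34355 of these had a mean level high enough to be tested. M202 is a japonica cultivar labelled as lacking Sub1A, the ethylene response factor gene that gives some rice submergence tolerance. The other 4 arrays are of M202(Sub1), the same cultivar carrying Sub1A by introgression. Of these, 2 are of plants submerged for 24 h under 90 cm of water (day 1) and 2 of non-submerged plants (day 0). M202(Sub1) plants were also 14 d old and grown at 30 degrees C with 25 plants in a pot. These 4 arrays are used to test where M202 differs. They also enter the filter on mean level and the estimate of spread behind each M202 p-value.

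Every plant in both M202 groups was grown in soil for 14 d in a greenhouse at 30 degrees C under natural light, with 25 plants in a pot. Submerged M202 plants were put fully under 90 cm of deionized water at 1 PM and their aerial tissue was taken 24 h later. Non-submerged M202 plants were sampled at day 0 and submerged ones at day 1, so submergence and 1 day of age cannot be told apart. The labels do not state the harvest hour of the non-submerged plants, and time of day cannot be told apart from submergence either if it differed. The replicates are called independent and biological without a statement of what separated them, so a p-value reflects only how far these samples spread, which may be technical.

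Gas moves slowly in water, so a submerged leaf loses access to oxygen and carbon dioxide, traps the hormone ethylene, and receives less light. Plant cells in this state are known to make less ATP by respiration and to draw on stored carbohydrate. Rice without Sub1A is known to elongate its shoots under water, a growth response that spends reserves.

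The arrays measure messenger RNA of whole aerial tissue, in which fewer cells of a type and less RNA per cell cannot be told apart. Values are deposited log2 levels whose lowest value, 2.22, is a common floor. The number of arrays limits the precision. Replicate arrays correlated at 0.9978 in submerged M202 and 0.9983 in non-submerged M202 (Pearson's r over the probe sets tested, which share their probes). All 11 leaf marker genes were above the floor, and their summed level was 18.71 to 18.78 in submerged M202 and 19.04 to 19.05 in non-submerged M202 on the log2 scale. Of the markers of other tissues, 3 of 6 root genes (Lsi2, NRT2.2 and SHR1), 7 of 11 endosperm genes, 3 of 4 meristem genes (OSH1, OSH43 and OSH71) and 6 of 7 anther genes lay within 0.1 of the floor on all 4 M202 arrays. The summed endosperm level was 9.69 to 9.87 in submerged M202 and 9.28 in non-submerged M202, and the summed root level was 10.26 to 10.37 in submerged M202 and 10.16 to 10.2 in non-submerged M202. Their part in the results was not tested. Non-submerged M202 replicate 1 stood apart in the hybridization spike-ins, RNAs added just before hybridization, at 10.37 against 10.85 to 11.08 on the other 7 arrays.

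Of the probe sets tested, 42.9% were called different between submerged and non-submerged M202 by limma at an adjusted p below 0.05. A share of 22.9% (7879 probe sets) was higher and 20.0% (6859) was lower in submerged M202. A call with at least a 2-fold change was made for 9.31% of probe sets in the higher direction and 9.34% in the lower. At 16-fold or more there were 405 higher and 255 lower probe sets. Higher probe sets made up 53.5% of the calls as deposited. When each array was centred on its 42 poly(A) spike-in probe sets, RNAs added before labelling, the median change moved by -0.16 and the higher share fell to 37.3%, with 6601 higher and 11099 lower. Small changes therefore carry a direction that depends on the scaling, and changes below are given on the deposited scale. An exact permutation test over 2 against 2 arrays cannot give a two-sided p below 0.333, so none was run for single genes.

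A gene name was available for 2237 genes tested, of which 34.3% were called higher and 31.5% lower, with a median log2 change of 0.0, the same median as over all probe sets tested. These shares are the background for the gene lists that follow. Where a gene had several probe sets, the brightest stands for it. Of 1044 genes with 2 or more called probe sets, 60 (5.75%) had calls in opposite directions.

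The largest rises in M202 joined carbon metabolism, growth and cell wall genes. PPDK2, a pyruvate phosphate dikinase that converts pyruvate to phosphoenolpyruvate, was at 14.5 and 14.36 in submerged M202, against 2.96 and 3.6 in non-submerged M202. That is a log2 change of 11.15 ± 0.21 (SE, n = 2 arrays per group, limma adjusted p = 4.62e-06), and the groups were far from overlapping. MS, the malate synthase of the glyoxylate cycle, was at 14.94 and 14.81 in submerged M202, against 6.59 and 6.5 in non-submerged M202 (log2 change 8.32 ± 0.05, limma adjusted p = 7.14e-07). ICL, isocitrate lyase of the same cycle, had a log2 change of 9.36, so both enzymes specific to that cycle rose together. Aconitase, which acts in this cycle and in the tricarboxylic acid cycle, rose by 1.33. PPDK1, the other pyruvate phosphate dikinase gene, fell by 0.57 (limma adjusted p = 0.00414), the opposite direction to PPDK2.

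ARGOS, named for a gene that promotes organ growth in Arabidopsis, was at 10.44 and 10.54 in submerged M202, against 2.29 and 2.79 in non-submerged M202. SAUR39, a small auxin-up RNA gene known in rice to restrain auxin synthesis and transport, was at 10.08 and 10.35 in submerged M202, against 2.81 and 3.56 in non-submerged M202. Both were low before submergence and rose by 7.95 ± 0.53 and 7.02 ± 0.39 on the log2 scale (limma adjusted p = 0.000205 and 0.000109). SMR1, a member of the SIAMESE-related family of cell cycle inhibitors, was at 8.65 and 8.71 in submerged M202, against 3.21 and 3.14 in non-submerged M202. CAD8A, of the cinnamyl alcohol dehydrogenase family, was at 9.69 and 9.73 in submerged M202, against 2.68 and 2.88 in non-submerged M202. OsC3H37, a CCCH zinc finger protein, rose by 7.01, and its non-submerged level of 7.48 and 7.28 was already well above the floor.

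Some genes for germin-like proteins, which are secreted to the cell wall, had large rises as well. GLP2 rose by 7.09 and its non-submerged level lay within 0.1 of the floor, so the fold is limited by the floor, and a second probe set rose by 3.79. GER6 was at 8.8 and 8.57 in submerged M202, against 3.21 and 3.19 in non-submerged M202, and GER7 rose by 3.5. The germin list, which does not include GLP2, had 3 of 8 genes higher, 2 lower and 3 not called (median 0.33). Over all named genes 34.3% were higher and 31.5% lower. LOX2.1, a lipoxygenase of the pathway that leads to jasmonate, rose by 6.12, and FOR1/PGIP-1, a polygalacturonase inhibitor, rose by 5.72. The gene listed as cap2, with no role given here, rose by 9.95. The entry named both ARD1 and HSF25, whose identity the names leave unsettled, rose by 8.08, with a second probe set at 1.37. BURP16 had the largest of the 15 largest rises, at 13.45, and Adh2 was also among them, at 6.04. Both non-submerged arrays sat at the floor of the probe set for each of these 2 genes. The 3 genes tested in the ethanol fermentation list, Adh2 among them, were all higher (median 3.06).

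The largest falls took in water channels, hormone genes and chloroplast proteins. CRSH2, a calcium-activated enzyme that makes the chloroplast alarmone ppGpp, was at 2.93 and 3.77 in submerged M202, against 12.57 and 12.6 in non-submerged M202. Its log2 change was -9.23 ± 0.3 (limma adjusted p = 1.98e-05), exceeded among named genes only by TIP1-2, a tonoplast aquaporin, at -9.83. PIP1-3, a plasma membrane aquaporin, was at 6.38 and 6.37 in submerged M202, against 12.37 and 12.38 in non-submerged M202, and PIP2-4 had a log2 change of -5.7. Both plasma membrane aquaporins were lower in each submerged array than in either non-submerged array. Plasma membrane aquaporins were lower for 7 of 9 genes tested and higher for 1 (median -1.92). Tonoplast aquaporins went the other way, with 5 of 7 genes tested higher and only TIP1-2 called lower (median 0.76). APR-like1, listed with the adenosine phosphosulphate reductase family of sulphate assimilation, had a log2 change of -5.71, with -6.08 for a second probe set and -0.80 without a call for another.

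CYP71Z6, a cytochrome P450 of diterpenoid synthesis, was at 2.23 and 2.34 in submerged M202, against 8.55 and 8.59 in non-submerged M202. Its submerged level lay within 0.1 of the floor, so the change of -6.29 is limited by it. The protein phosphatases PP2C30 and ABIL1, of the family that holds back abscisic acid signalling, had log2 changes of -5.74 and -5.41. PM19L, a membrane protein of the dehydrin and late embryogenesis list, had a change of -5.23. All 7 genes tested in that list were lower (median -4.08), among them RAB16C at -4.08 and LEA19 at -3.93. BASS3, of the bile acid sodium symporter family of chloroplast transporters, had a change of -4.97, and mfs1, with no role given here, one of -5.22.

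**Figure D1:**
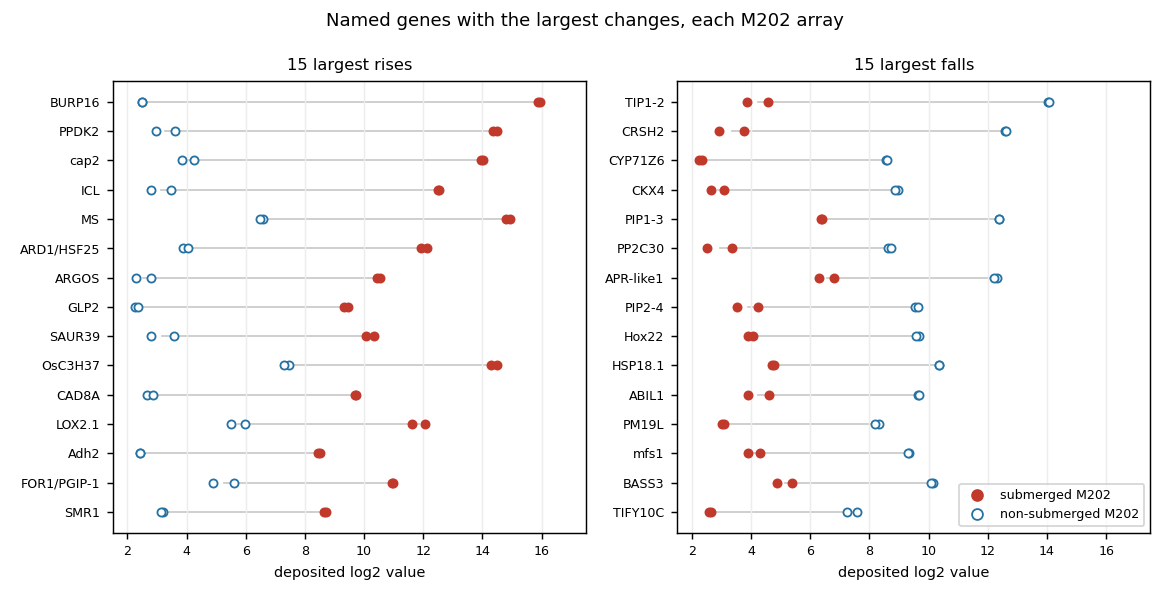
Deposited log2 level (horizontal axis) of the 15 named genes with the largest rise (left) and the 15 with the largest fall (right), with filled points for the 2 submerged M202 arrays and open points for the 2 non-submerged M202 arrays. Grey lines join the group means. The genes were picked for their large change on these same arrays, so the gap between groups follows from the choice. PPDK2 is at 14.5 and 14.36 in submerged M202, against 2.96 and 3.6 in non-submerged M202.

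Sugar movement and starch genes changed in both directions. Among sugar transporters 8 of 14 tested were called higher and 5 lower (median 0.47, and 0.31 after poly(A) centring). SWEET11, a sucrose efflux carrier, was at 10.24 and 10.27 in submerged M202, against 5.52 and 6.08 in non-submerged M202 (log2 change 4.45 ± 0.21, limma adjusted p = 5.75e-05). MST3, a monosaccharide transporter, rose by 2.91, while SWEET16 fell by 3.06. SWEET15 fell by 4.08, to within 0.1 of the floor in submerged M202, against 6.58 and 6.05 in non-submerged M202. Members of one carrier family thus moved in opposite directions.

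Starch and sucrose synthesis genes were lower or not called, with 1 exception. Of 7 starch synthesis genes 4 were lower and 0 higher (median -0.46), and of 5 sucrose synthesis genes 3 were lower and 1 higher (median -0.38). The starch synthase SS1 was at 6.9 and 6.6 in submerged M202, against 10.41 on both non-submerged arrays, a log2 change of -3.66 ± 0.15 (limma adjusted p = 4.45e-05). SS2, another starch synthase, fell by 1.66, with a second probe set at -0.26. SPP1 and SPP2, which remove the phosphate in the last step of sucrose synthesis, fell by 2.38 and 0.95. Trehalose phosphate phosphatases, which act on a sugar signal, had 3 of 7 lower and 1 higher, with TPP4 at -2.39, TPP2/OsTPP2 at -1.89 and TPP1 at -1.7. TPP7, a phosphatase known for germination under water, was higher by 0.42 from 1 probe set and not called from the other (-0.00). That rise is a call lost without either non-submerged array or without submerged replicate 1, and lost after centring on the hybridization spike-ins.

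In glycolysis 5 of 17 genes were higher, 4 lower and 8 not called, but 4 were higher and 7 lower after poly(A) centring, and 2 and 5 when the dimmest probe set stood for each gene. HXK7, a hexokinase, was at 9.03 and 9.04 in submerged M202, against 5.62 and 5.46 in non-submerged M202. GAPC3, a glyceraldehyde phosphate dehydrogenase, rose by 2.06, with other probe sets at 1.75 and, without a call, -0.34. Of 20 respiration genes 5 were higher, 4 lower and 11 not called (median -0.03), but 4 were higher and 11 lower after poly(A) centring (median -0.19). AOX1, the alternative oxidase that passes electrons straight to oxygen, was at 4.17 and 4.77 in submerged M202, against 8.78 and 8.77 in non-submerged M202 (log2 change -4.3 ± 0.2, limma adjusted p = 5.44e-05). ETF-QO, which feeds electrons from amino acid and lipid breakdown into the respiratory chain, rose by 1.96. The non-symbiotic haemoglobins, which bind oxygen tightly and remove nitric oxide, rose by 1.12 (NSHB1) and 1.08 (NSHB2) from levels already high. NSHB2 was at 13.06 and 13.05 in submerged M202, against 11.9 and 12.04 in non-submerged M202.

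NIA1, the nitrate reductase that starts nitrate assimilation, was at 9.81 and 9.83 in submerged M202, against 14.34 and 14.38 in non-submerged M202, a log2 change of -4.54 ± 0.04 (limma adjusted p = 1.26e-06), though another of its probe sets did not change (-0.00). NLP3 and NLP2, transcription factors of the nitrate response, fell by 2.59 and 1.03. NAR2.2, a partner protein of high-affinity nitrate transporters, rose by 2.65 to a level that stayed low, at 5.35 and 5.38 in submerged M202. Over the list 3 of 8 genes were higher and 4 lower, and 1 was higher and 5 lower after poly(A) centring.

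The enzymes that make glutamate from ammonium changed in opposite directions. GLT2, an NADH-dependent glutamate synthase, was at 12.65 and 12.27 in submerged M202, against 8.4 and 8.37 in non-submerged M202 (log2 change 4.08 ± 0.15, limma adjusted p = 3.08e-05). Fd-GOGAT, the ferredoxin-dependent form of photosynthetic leaves, fell by 1.32, and its other probe sets fell by 1.69 and 1.75. GLN1-2, a cytosolic glutamine synthetase, rose by 1.18. AMT1-2, an ammonium transporter, was lower by 1.08 (limma adjusted p = 0.0367), a call lost when either non-submerged array or submerged replicate 1 was left out. Of 16 genes in the list 5 were higher and 4 lower (median 0.0), with 5 and 5 after poly(A) centring.

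Serine acetyltransferases, which start cysteine synthesis, diverged. SAT1 was at 13.06 and 13.02 in submerged M202, against 9.31 and 9.52 in non-submerged M202, and SAT4 was at 6.18 and 5.93 in submerged M202, against 10.46 and 10.55 in non-submerged M202. The 2 genes thus changed by 3.62 and -4.45 on the log2 scale. Among iron and nicotianamine genes 10 of 31 were higher and 10 lower (median 0.01), with 9 and 13 after poly(A) centring (median -0.15). IRT2, an iron uptake transporter, was at 7.38 and 7.61 in submerged M202, against 3.2 and 2.88 in non-submerged M202 (log2 change 4.46 ± 0.15, limma adjusted p = 2.19e-05). Of the YSL carriers of metal chelates, YSL13 rose by 3.61, with 6.67 and 5.42 in non-submerged M202, and YSL9 fell by 3.18. Nramp1, a metal transporter, fell by 2.7.

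Zinc and metallothionein genes also changed in both directions. Of 15 genes for zinc and other metals 6 were higher and 5 lower, against 34.3% higher and 31.5% lower over all named genes. ZIP2 and ZIP1, metal transporters of the ZIP family, rose by 3.21 and 3.03, while ZIP4 was at 3.65 and 4.61 in submerged M202, against 7.78 and 7.59 in non-submerged M202. MT1B, a small metal-binding metallothionein, was at 10.28 and 10.21 in submerged M202, against 5.17 and 5.36 in non-submerged M202 (log2 change 4.98 ± 0.09, limma adjusted p = 4.2e-06). MT4C rose by 2.89, but MT2B fell by 1.73, and of the 7 metallothioneins 2 were higher and 4 lower. Potassium transporters showed large changes both ways. HAK7 was at 12.5 and 12.42 in submerged M202, against 8.56 and 8.68 in non-submerged M202, and HAK27 was at 4.17 and 3.87 in submerged M202, against 8.86 and 8.72 in non-submerged M202. Over that list 8 of 24 genes were higher and 9 lower.

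In the phosphate list 4 of 16 genes were higher, 3 lower and 9 not called, but 3 were higher and 6 lower after poly(A) centring. SPX4, a sensor protein of phosphate state, rose by 2.14, though a second probe set was not called (0.60). PHR3, a transcription factor of the phosphate starvation response, fell by 2.64. PHT1-2, a phosphate transporter, fell by 2.72. PHT1-1 gave opposite calls from its 2 probe sets, 4.13 for the brighter and -4.55 for the other, so its direction is unsettled.

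**Figure D2:**
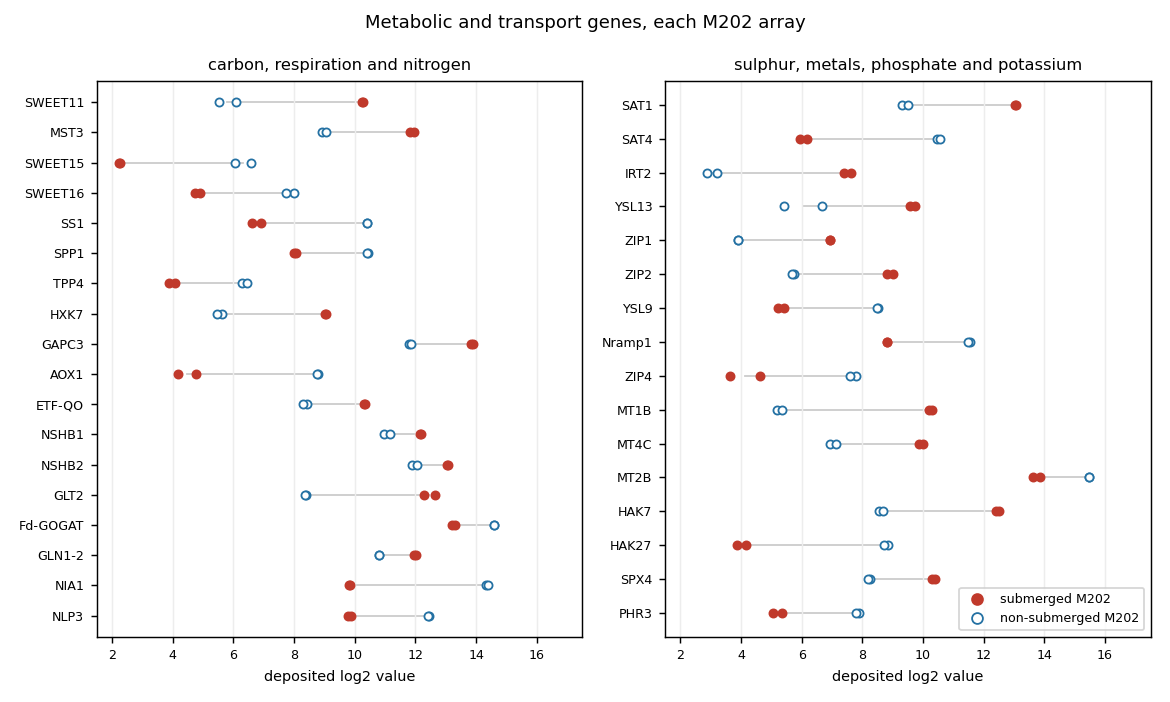
Deposited log2 level (horizontal axis) of metabolic genes (left) and mineral transport and metal-binding genes (right) on each M202 array, with filled points for submerged and open points for non-submerged M202. Related genes lie on opposite sides, such as SAT1 (13.06 and 13.02 in submerged M202, against 9.31 and 9.52 in non-submerged M202) and SAT4 (6.18 and 5.93, against 10.46 and 10.55).

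Cytokinin genes fell more often than they rose. Of 27 tested, 13 were lower, 6 higher and 8 not called (median -0.34, and -0.51 after poly(A) centring). RR1, a response regulator whose transcript is induced by cytokinin, was at 4.33 and 4.61 in submerged M202, against 9.35 and 9.2 in non-submerged M202. RR9, of the same type, was at 6.55 and 6.5 in submerged M202, against 10.87 and 10.85 in non-submerged M202 (log2 change -4.33 ± 0.05, limma adjusted p = 1.9e-06). LOG, which releases active cytokinin, fell by 3.34. CKX4, an oxidase that destroys cytokinin, was at 2.66 and 3.07 in submerged M202, against 8.96 and 8.85 in non-submerged M202. The genes named here for synthesis, response and breakdown thus all fell, though 6 others in the list were higher.

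Auxin response factors fell more often than they rose. Of 16 auxin response factors, the transcription factors of the pathway, 10 were lower and 4 higher (median -0.33), led by ARF10 at -1.97, OsETTIN2 at -1.72, ARF1 at -1.6 and ARF3 at -1.18. Their repressors, the IAA proteins, had 5 of 24 higher and 5 lower, with 5 higher and 8 lower after poly(A) centring. IAA6 was at 10.72 and 10.67 in submerged M202, against 7.3 and 7.48 in non-submerged M202 (log2 change 3.31 ± 0.07, limma adjusted p = 5.78e-06). IAA18 and IAA8 rose by 2.72 and 2.26, and IAA25 fell by 2.37.

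In the jasmonate pathway 6 of 15 synthesis genes were higher and 5 lower, with 5 higher and 6 lower after poly(A) centring. Beside LOX2.1, the lipoxygenase genes LOX9 and LOX5 rose by 3.23 and 2.21, though a second LOX9 probe set was not called (0.10). OPR-1, of the oxophytodienoate reductase family, rose by 2.62 from within 0.1 of the floor in non-submerged M202. Among the TIFY proteins, which repress jasmonate responses, 7 of 15 were lower and 3 higher (median -0.29). TIFY10C was at 2.57 and 2.64 in submerged M202, against 7.24 and 7.58 in non-submerged M202, while TIFY6A rose by 1.74. Of 17 brassinosteroid genes 6 were higher and 3 lower, a lead that became 4 and 4 after poly(A) centring. GSK2, a kinase that represses this pathway, rose by 1.24, BZR2 of its transcription factor family rose by 1.07, and BU1, a growth-promoting response gene, fell by 1.59.

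Transcription factor families had large single changes. Of 19 bZIP genes 11 were higher and 2 lower (median 0.69, and 0.53 after poly(A) centring). BZIP52 was at 10.18 and 10.25 in submerged M202, against 5.99 and 6.38 in non-submerged M202, RF2b rose by 3.95 and TGAL11 by 3.15. Of 12 MYB genes 7 were higher and 2 lower, with MYBAS1 up by 3.11, and of 6 NAC genes 3 were higher and 1 lower, with NAC068 up by 3.83 and NAC45 by 2.25. WRKY24 and WRKY71, of a family linked to defence, rose by 3.06 and 3.02, and 4 of 6 WRKY genes were higher with 0 lower. Of 6 DREB genes, known for cold and drought responses, 0 were called by limma and 0 had an unadjusted p under 0.05, with changes from -0.59 to 0.25. After poly(A) centring 1 was called lower, and without submerged replicate 1 there was 1 higher.

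The HD-Zip and homeobox list had 10 of 23 genes higher and 5 lower, with 9 and 8 after poly(A) centring, when its median went to -0.1 against 0.06 as deposited. Hox22, a HD-Zip gene known to respond to drought and abscisic acid, was at 3.91 and 4.05 in submerged M202, against 9.67 and 9.57 in non-submerged M202 (log2 change -5.64 ± 0.18, limma adjusted p = 1.86e-05). HOX12 was at 7.83 and 6.74 in submerged M202, against 3.27 and 3.3 in non-submerged M202, and Hox21 rose by 2.02. Of 10 basic helix-loop-helix genes 6 were higher and 2 lower, led by BHLH004 at 4.55, bHLH080 at 4.5 and ILI2 at 4.12. ILI2 belongs to a group of small proteins known to act on cell elongation. MADS26 fell by 3.34, and GRF3, of the growth-regulating factors, was higher by 0.82, a call lost after centring on the hybridization spike-ins.

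SAP zinc finger proteins, known as stress-associated proteins, were mostly higher, at 8 of 12 with 2 lower (median 0.75, and 0.58 after poly(A) centring). ISAP1 was at 11.89 and 11.86 in submerged M202, against 9.87 and 9.95 in non-submerged M202, and SAP5 rose by 2.9. Of 44 CCCH zinc finger genes 18 were higher and 5 lower, and 16 and 13 after poly(A) centring.

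**Figure D3:**
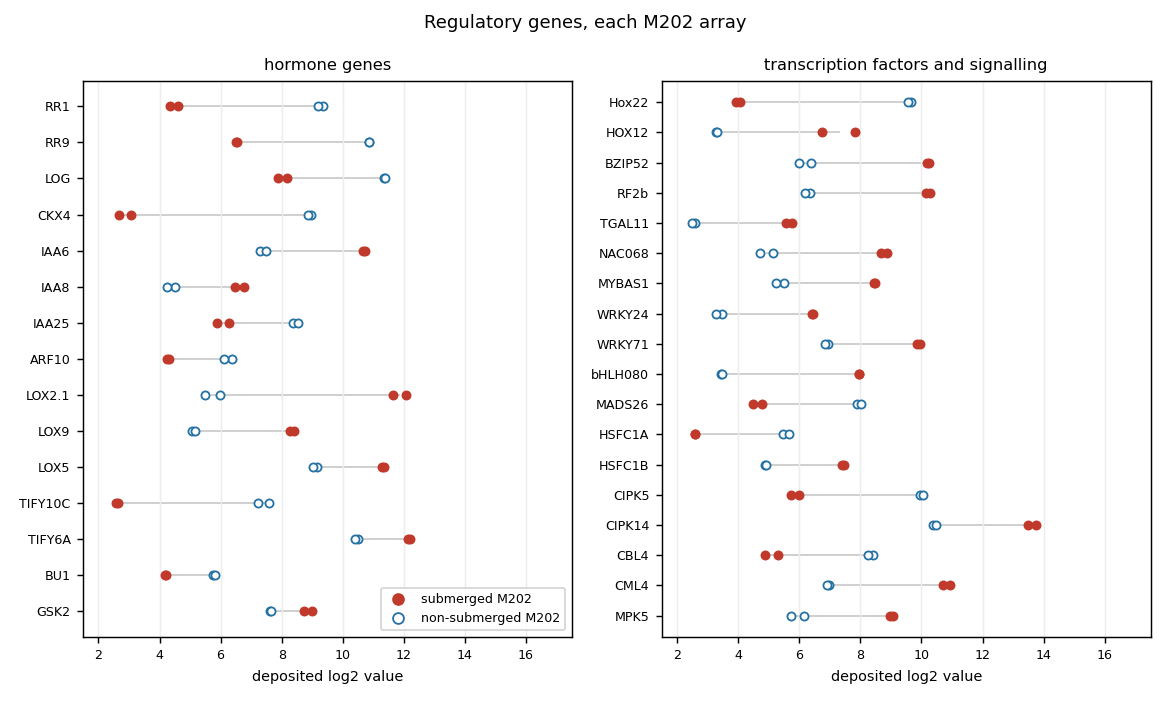
Deposited log2 level (horizontal axis) of hormone genes (left) and of transcription factor and signalling genes (right) on each M202 array, with filled points for submerged and open points for non-submerged M202. The cytokinin genes at the top left are lower in submerged M202, such as RR9 at 6.55 and 6.5, against 10.87 and 10.85 in non-submerged M202.

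Small heat shock proteins, which keep damaged proteins from clumping, were mostly lower. Of 18 tested, 12 were lower, 3 higher and 3 not called (median -1.14, and -1.3 after poly(A) centring). HSP18.1 was at 4.72 and 4.78 in submerged M202, against 10.36 on both non-submerged arrays, a log2 change of -5.61 ± 0.22 (limma adjusted p = 3.55e-05), and its second probe set fell by 4.96. HSP17.4 and HSP18.6 fell by 3.33 and 3.15. The largest of the 3 rises was that of hsp17.9, at 13.77 and 13.86 in submerged M202, against 10.27 and 10.23 in non-submerged M202 (log2 change 3.57 ± 0.06, limma adjusted p = 4.2e-06).

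Among other chaperones 16 of 29 were higher and 6 lower (median 0.43, and 0.26 after poly(A) centring). CLPD1, a chloroplast chaperone of the Clp family, was at 12.16 and 11.73 in submerged M202, against 8.14 and 8.15 in non-submerged M202. CLPB1, which rescues aggregated proteins after heat, fell by 2.56, with both submerged arrays at the floor of the probe set. ERDJ3B, a cochaperone of the endoplasmic reticulum, rose by 1.61. Of 17 heat shock factors 7 were higher and 4 lower, with 3 and 3 after hybridization centring, and HSFC1B rose by 2.54 while HSFC1A fell by 2.96 to the floor of its probe set. HSFB2B was higher by 2.1, a call lost without non-submerged replicate 1 or submerged replicate 2.

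Calcium decoding kinases changed in both directions, and no test compared their families. Of 15 calcium-dependent protein kinases 10 were higher and 2 lower (median 0.57, and 0.41 after poly(A) centring), with CPK24 up by 1.71, while CPK12 fell by 1.57. Of 23 CIPK kinases, which act with calcineurin B-like sensors, 12 were lower and 7 higher (median -0.72). CIPK5 was at 5.74 and 5.99 in submerged M202, against 9.96 and 10.04 in non-submerged M202 (log2 change -4.13 ± 0.09, limma adjusted p = 6.75e-06). CIPK14 was at 13.74 and 13.5 in submerged M202, against 10.37 and 10.48 in non-submerged M202, and CIPK1 fell by 2.71. Among the sensors CBL4 fell by 3.24 and CBL9 rose by 2.45. The calmodulin-like CML4 rose by 3.9, although 1 of its 3 probe sets was not called (0.12), and CML1 fell by 3.15.

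Of 16 MAP kinases 6 were higher and 4 lower, with 6 and 7 after poly(A) centring. MPK5, a kinase known for stress and defence signalling, was at 8.97 and 9.07 in submerged M202, against 5.72 and 6.14 in non-submerged M202. MPK13 rose by 2.54 and MPK7 fell by 1.91. SNRK1B, a sugar-starvation kinase subunit, rose by 1.1. SnRK1A, the better known of the pair and a regulator of rice growth under water, was lower by 0.25 (limma adjusted p = 0.0239), a call lost when either non-submerged array or submerged replicate 2 was left out. That call was also lost after centring on the hybridization spike-ins.

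Thioredoxin and glutaredoxin genes, which reset protein disulphides, had 12 of 33 higher and 16 lower (median -0.26). GRXC10 was at 11.36 and 11.19 in submerged M202, against 7.85 and 7.86 in non-submerged M202. GRXS2 was at 3.86 and 4.25 in submerged M202, against 8.01 and 8.02 in non-submerged M202, and GRXC7 fell by 2.4. Of 6 glutathione S-transferases, detoxifying enzymes, 4 were lower and 0 higher, and GSTZ5 fell by 2.13.

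Cell wall synthesis genes changed in both directions. Of the 9 cellulose synthases 7 were lower and 0 higher (median -0.63), and CESA1, of the primary wall, was at 11.73 and 11.74 in submerged M202, against 12.77 on both non-submerged arrays. CESA6 fell by 0.95. Of 18 cellulose synthase-like genes 4 were higher and 6 lower (median -0.01), with CSFL8 and CSLF2, of the F group, lower by 3.54 and 2.24. In the pectin and xyloglucan list 2 of 3 genes were lower and 0 higher. Of 30 lignin and phenylpropanoid genes 14 were higher and 8 lower, with 13 and 13 after poly(A) centring and 5 and 8 after hybridization centring. PAL, the entry enzyme of that pathway, was at 15.98 and 15.99 in submerged M202, against 14.9 on both non-submerged arrays, but 1 of its probe sets fell by 0.26. The coenzyme A ligase 4CL5 rose by 3.44, while 4CL2 fell by 2.97 and the related 4CLL7 fell by 4.14.

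Actin and kinesin genes were more often lower than higher. Of 28 actin and actin-binding genes 12 were lower and 5 higher (median -0.15). ADF11, an actin-severing factor, was at 8.61 and 8.99 in submerged M202, against 13.43 and 13.44 in non-submerged M202 (log2 change -4.64 ± 0.18, limma adjusted p = 3.12e-05), ADF7 fell by 3.0 and the actin gene ACT2 fell by 2.03. Of 30 kinesins, motor proteins of microtubules, 12 were lower and 2 higher (median -0.22), with 17 and 1 after poly(A) centring, led by KIN14A at -2.19, with KIN14O up by 1.65. Of 11 tubulins 5 were higher and 2 lower, and 3 and 4 after poly(A) centring. TUB4 was higher by 0.81, a call lost after centring on the hybridization spike-ins.

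In the list of cyclin-dependent kinases and their inhibitors 9 of 17 were higher and 2 lower (median 0.39), with 9 and 5 after poly(A) centring (median 0.23). EL2, an inhibitor of the SMR1 family, was at 8.96 and 8.81 in submerged M202, against 6.4 and 6.35 in non-submerged M202, and the kinase CDKF-1 rose by 1.87. Of 23 cyclins 8 were higher, 3 lower and 12 not called, with CYCP3-1 up by 2.53 and CYCD4-1 up by 1.91, while CYCP2-1 fell by 2.16. Of 25 DNA replication genes 17 were not called, 6 were higher and 2 lower, with 6 and 5 after poly(A) centring and 0 and 1 after centring on the hybridization spike-ins. MCM2, a subunit of the replicative helicase, was higher by 0.85, a call lost after centring on the hybridization spike-ins. RPA2A was lower by 1.34, a call lost without non-submerged replicate 2. Several replication genes sat low on these arrays, with MCM2 at 4.24 and 4.57 in submerged M202, against 3.6 and 3.51 in non-submerged M202.

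Translation genes moved by small amounts. Of 25 cytosolic ribosomal protein genes 9 were higher and 4 lower as deposited, but 4 were higher and 8 lower after poly(A) centring, so the list has no direction that holds under both scalings. RPL27 had its largest change, a fall of 0.95, which its other probe sets shared at -1.51 and -0.90. Of 9 translation factors 6 were higher and 2 lower, 5 and 2 after poly(A) centring, but 0 and 0 after centring on the hybridization spike-ins. The helicase eIF-4A-3 was higher by 0.92, a call also lost under that centring.

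**Figure D4:**
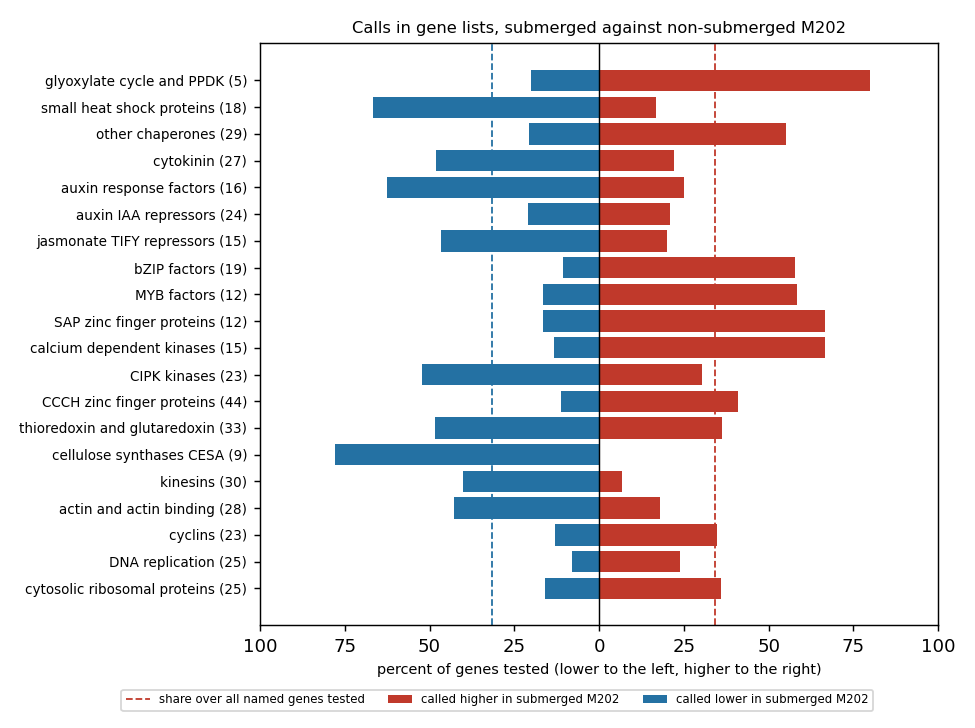
Percent of the genes tested in each list that were called higher (right, red) or lower (left, blue) in submerged against non-submerged M202, with the number tested in brackets and dashed lines at the shares over all named genes, 34.3% higher and 31.5% lower. Of 18 small heat shock protein genes 12 are lower, and of 25 ribosomal protein genes 9 are higher and 4 lower as deposited, against 4 and 8 after poly(A) centring, which also gives 5 higher and 8 lower for the 24 IAA repressors.

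Light and clock genes changed within their families. PHOT1A and PHOT2, phototropins that sense blue light, were at 12.22 and 12.06 and at 11.91 and 11.63 in submerged M202, against 10.12 and 10.01 and 13.59 and 13.48 in non-submerged M202. Their log2 changes were 2.08 and -1.76. In the clock PRR37, a repressor also known for heading date, fell by 1.38, LHY, a morning factor, fell by 0.51, and GI rose by 0.59. The calls for GI and LHY were lost after centring on the hybridization spike-ins, and, as above, clock genes could differ with the hour of harvest, which was not tested. MFT1, a relative of the flowering regulators, was at 6.62 and 7.05 in submerged M202, against 3.09 and 4.15 in non-submerged M202 (log2 change 3.22 ± 0.42, limma adjusted p = 0.00241).

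Defence genes changed in both directions, as named genes did in general (34.3% higher and 31.5% lower). Of 13 chitinase and pathogenesis-related genes 5 were lower and 3 higher, with Cht4 at 2.67 and 2.58 in submerged M202, against 7.33 and 7.44 in non-submerged M202. Cht5, another chitinase, fell by 2.66 and PBZ1, a pathogenesis-related protein, by 2.54. In diterpenoid phytoalexin synthesis 4 of 14 genes were lower and 3 higher, which became 7 and 2 after poly(A) centring. CPS2, the cyclase that starts one branch of it, was at 2.43 and 3.66 in submerged M202, against 5.04 and 4.24 in non-submerged M202 (limma adjusted p = 0.0464), a call lost when either non-submerged array or submerged replicate 1 was left out.

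Photosynthesis genes fell more often than they rose, by small amounts for most of them. Of 17 photosystem and light-harvesting genes 10 were lower and 1 higher (median -0.17), with 14 lower after poly(A) centring but 4 after centring on the hybridization spike-ins. Of 11 Calvin cycle and photorespiration genes 8 were lower and 0 higher (median -0.48), with 5 lower after hybridization centring. Of 16 chlorophyll synthesis genes 13 were lower and 1 higher (median -0.48), with 8 lower after hybridization centring. Of the 11 leaf marker genes, some of which are also in these lists, 8 were lower and 0 higher, with 2 lower after hybridization centring.

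GLO4, a glycolate oxidase gene of the photorespiration list, was at 8.25 and 8.19 in submerged M202, against 11.02 and 11.22 in non-submerged M202 (log2 change -2.9 ± 0.1, limma adjusted p = 2.31e-05). GDCSH, the H protein of the photorespiratory glycine decarboxylase, fell by 1.47, with a second probe set not called at -0.25. FBPase, a fructose bisphosphatase, fell by 1.08, and LFNR1, a leaf ferredoxin-NADP reductase, by 0.99. The Rubisco activase gene rca was lower by 0.48, a call lost after centring on the hybridization spike-ins. GLO1, another glycolate oxidase, was lower by 0.97, a call lost without either non-submerged array and opposed by a second probe set at 0.58. CAB2R, a light-harvesting protein, was lower by 0.17 (limma adjusted p = 0.04), a call lost without any 1 of the 4 arrays. LIR1, a light-regulated chloroplast protein, was the 1 higher member of the photosystem list, at 0.54, a call lost after hybridization centring. RBCS, the small subunit of Rubisco, was not called, at 16.58 and 16.6 in submerged M202, against 16.56 and 16.58 in non-submerged M202 (log2 change 0.02 ± 0.03, limma adjusted p = 0.643, and -0.14 after poly(A) centring). After quantile normalization RBCS was called lower, at -0.16 (limma adjusted p = 0.00764). Its probe set lies near the top of the scale of these arrays, and whether it could register a change there was not tested.

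Among genes with a name, the 10 of highest mean level in each group were also listed, though such values do not compare amounts between genes. Probe sets without a gene name were left out of this ranking, and some may lie higher. RBCS, CAB2R, rca, PETE, RCABP89 and TIP1-1 were among them in both groups. LIR1, PAL, BURP16 and GOS2 were among them in submerged M202 alone, and BIPP2C1, GLO1, ADI1 and ALDP in non-submerged M202 alone.

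Most of the M202 response did not differ by test from that of M202(Sub1), whose arrays are separate from those of M202. The difference between the responses was called for 12.3% of probe sets tested, and for 3291 (22.3%) of the probe sets called in M202. A missing call does not show that the responses are alike. Among those 3291 the change was larger in M202 for 1067 and larger in M202(Sub1) for 2224. IRT2 rose by 4.46 in M202 against 2.24 in M202(Sub1), a difference of -2.22 (M202(Sub1) minus M202, limma adjusted p = 0.00634). PM19L changed by -5.23 in M202 against -1.99 in M202(Sub1), a difference of 3.24 (limma adjusted p = 0.00487). Its submerged levels were 3.03 in M202 and 2.89 in M202(Sub1), and its non-submerged levels 8.26 in M202 and 4.88 in M202(Sub1), so the genotypes stood apart before submergence and both were low after it. TPP1 changed by -1.7 in M202 against 0.76 in M202(Sub1), a difference of 2.46 (limma adjusted p = 0.00487). SMR1 went the other way, rising by 5.51 in M202 against 8.86 in M202(Sub1), a difference of 3.35 (limma adjusted p = 0.00144).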

How the data were processed

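Affymetrix rice arrays were hybridized with aerial tissue RNA, 2 arrays per group, grouped by the sample labels. The deposited log2 values, 1 per probe set and array, come from the authors. GCRMA and MAS5 appear in the submitters' processing notes, with no role, order or version, and no genome build is given in the sources used here. Values were used as deposited. The 123 control probe sets were left out, and probe sets with a mean at or above the 40th percentile (log2 2.23) were tested with limma 3.58.1 in R 4.3.3, with 1 coefficient per group over all 8 arrays and an intensity trend. The contrast was submerged minus non-submerged M202, and a probe set was called when its p after Benjamini-Hochberg adjustment was under 0.05. The fit had 4 residual degrees of freedom. In simulated data 200 of 34355 probe sets were moved. The fit recovered 66% of those moved by 1 and 91% of those moved by 2 on the log2 scale, with 13 false calls. In the real data 42.9% of probe sets were called, a far larger share than was moved, so these rates may not carry over.

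Of 57258 probe sets, 22436 were paired with 1 gene, and 2455 of 17905 genes had a name in RefSeq's gene table. Tables were made with Python 3.11.15 and pandas 2.3.3. Named genes were the 15 largest rises and falls, up to 4 called genes of largest change per list, a list's best known member, and the 10 highest levels per group. The members and the 93 lists were chosen with earlier results of these data known. The alternatives were other filters, scalings and variance priors, only the M202 arrays, a replicate block and each array left out. Poly(A) centring used all 42 control probe sets, as planned. A version without the 6 TrpnX probe sets, which lie at the floor on every array, was added after the data and both shifts had been seen. Promoter sequences were not analysed here.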

Additional observations from a re-analysis of the deposited data

Results flagged for a closer look

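For 39 of the genes named above, the change with submergence differed between M202(Sub1) and M202 by the limma test of the difference itself. Values are log2 differences, M202(Sub1) minus M202, with 2 arrays per group. The change was larger in M202 for 20 of them. Among rises these were IRT2 (-2.22), CAD8A (-1.63), BHLH004 (-1.31), MT1B (-1.28), MS (-1.09), GLN1-2 (-0.95), ZIP1 (-0.86), CYCP3-1 (-0.78), GLP2 (-0.71) and TPP7 (-0.61). Among falls they were PM19L (3.24), LEA19 (2.85), TPP1 (2.46), Cht4 (1.67), PHR3 (1.38), RR9 (1.28), ARF1 (1.27), YSL9 (0.95), LFNR1 (0.6) and NIA1 (0.43). The change was larger in M202(Sub1) for the other 19. Among rises these were SMR1 (3.35), Adh2 (2.89), PPDK2 (1.5), HSFC1B (1.49), LOX9 (1.24), GAPC3 (1.22), hsp17.9 (0.77) and NAR2.2 (0.67). Among falls they were 4CL2 (-1.12), BU1 (-1.03), LHY (-0.95), Nramp1 (-0.8), SAT4 (-0.74), ACT2 (-0.73), CESA6 (-0.65), SPP1 (-0.54), CESA1 (-0.5), FBPase (-0.49) and ADF7 (-0.49). For PM19L and LEA19 the non-submerged levels already differed, at 8.26 and 6.6 in M202 and 4.88 and 3.34 in M202(Sub1). Their submerged levels were low in both genotypes. They were not the only such genes. Non-submerged MS was at 6.55 in M202 and 7.36 in M202(Sub1), and Nramp1 at 11.51 and 10.58, while Adh2 was at 2.44 in both. How much of each difference lies in the non-submerged level was not tested. For both cell cycle and metal genes the list holds members on each side. With 2 arrays per group no array could be tested for standing apart within its group.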

How the results depend on the processing

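The 7879 higher and 6859 lower probe sets stayed within 1.5 times under most settings. The higher count was 3149 after centring on the hybridization spike-ins, in which non-submerged M202 replicate 1 stands apart. The lower count was 11099 after poly(A) centring as planned and 12710 in the version without the TrpnX probe sets, which was chosen after seeing the data and gave a higher share of 33.3%. With 1 M202 array left out the higher count was 6366 to 7694, the lower count 5923 to 6608, and the count of differing responses 3096 to 3800. That last count, 4223 as reported, was 519 after hybridization centring and 2650 without a filter on low values. With the replicate number as a block, 7789 probe sets were higher, 6798 lower and 3636 differed in response. When only the 4 M202 arrays were fitted, 6705 probe sets were higher and 5993 lower. Deviations of same-numbered M202 arrays correlated at 0.008 (2 numbers). What same-numbered arrays had in common is not stated, and 1 such value cannot show that they shared nothing else. Of 191 genes in the text, 182 kept direction and call with each M202 array left out, and 168 under every setting that gave a value. RBCS turned to -0.14 (poly(A)), -0.17 (poly(A) without TrpnX), -0.18 (hybridization) and -0.16 (quantile normalization). Only the last of these RBCS values was called lower (limma adjusted p = 0.00764). CAB2R and RCABP89 turned to 0.01 under quantile normalization. The cause was not tested. Of 47 gene lists with a median above 0, 19 had one below 0 after planned poly(A) centring. Levels near the floor limit the folds against them.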

Other observations

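Of 22 small RNA pathway genes, which include the Argonaute and Dicer-like proteins, 8 were higher and 6 lower in submerged M202 (median 0.18, and 0.02 after poly(A) centring). Of 7 autophagy genes 3 were higher and 1 lower, and 2 and 2 after poly(A) centring. The MADS list had 16 of 31 genes tested, with 2 higher and 6 lower. Of 11 flowering genes 5 were higher and 2 lower as deposited, and 3 and 5 after poly(A) centring.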
